A study of Mus musculus with 4 samples.

Results

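The 10 mouse genes described here encode the main heat shock proteins of the cytosol (Hspa1a, Hspa1b, Hspa8, Hsph1, Dnajb1, Hsp90aa1, Hsp90ab1 and Hspb1) and of the mitochondrial matrix (Hspd1 and Hspe1). They were chosen by name, and every probe whose RefSeq transcript belongs to 1 of them was taken, which gave 16 probes for 10 of the 17305 genes that could be named on the array. RNA came from pancreas of C57BL/6JNarl mouse embryos at E18.5, late in gestation. Each of 4 two-colour arrays carried 1 extract of Cyp11a1 knockout (KO) pancreas in the red dye and 1 of wild-type (WT) pancreas in the green dye. Cyp11a1 encodes the mitochondrial enzyme that cuts the side chain of cholesterol to make pregnenolone, from which steroid hormones derive. The design asks which transcripts of the late fetal pancreas differ without that enzyme. The probe for Cyp11a1 itself gave log2 ratios of KO over WT of -0.19, -0.40, 0.013 and -0.072 on arrays 1 to 4, with a mean of -0.16 ± 0.070 that did not pass (limma adjusted p = 0.165). Where the probe lies relative to the altered part of the gene is unknown, so these values do not check the genotype labels.

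Heat shock proteins are chaperones that bind unfolded proteins and help them fold. Hsp70 proteins work in cycles of ATP hydrolysis, which J-domain proteins stimulate, and ADP release, which nucleotide exchange factors speed. They pass some clients on to Hsp90, which steroid receptors need to bind their hormone. In mitochondria, Hsp60 (Hspd1) forms a chamber that Hsp10 (Hspe1) closes as a lid. Heat shock factor 1 (Hsf1) raises the inducible members under stress by binding heat shock elements, repeats of the unit GAA in alternating orientation. The exocrine pancreas makes large amounts of secreted protein, most of which folds in the endoplasmic reticulum (ER) with other chaperones.

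All arrays were on 1 slide with 1 scan, and the KO extract was red on each, so genotype and a dye effect on single genes cannot be told apart. The labels call the arrays biological replicates. The labels do not say whether embryos were pooled for an extract. Median spot signals were 304 to 467 in the KO channel against 163 to 224 in the WT channel, and the share of spots well above background was 78.2% to 85.1%. The arrays differed in Xist, a transcript of females, whose log2 ratio of KO over WT was -3.91, -0.28, -4.22 and 3.46 on arrays 1 to 4. The Y-linked Eif2s3y gave 1.82, 0.23, 1.74 and -1.20, so the 2 extracts of arrays 1, 3 and 4 differed in these sex-linked transcripts and in both directions. Of the 12 acinar and 9 endocrine markers tested, all 12 and all 9 were well above background on every array in both channels. With limma, 4 acinar markers were higher and 3 lower in KO (log2 ratios between -0.78 and 0.72), 2 endocrine markers were lower, 1 of 6 mesenchyme markers was higher and 1 of 5 endothelium markers was lower. None of the 6 duct and 5 leukocyte markers passed. Among markers of other cells, 7 hepatocyte genes had a median log2 ratio of 0.54 with 0 past the limma threshold, and a summed signal of 6378 to 16696 in KO and 4843 to 9355 in WT. The 6 erythroid genes had a median of 0.35, also with 0 past it, and a summed signal of 114587 to 168419 in KO and 62804 to 154252 in WT. The part of these cells in the results below was not tested, and in bulk tissue fewer cells of a type and less RNA per cell cannot be told apart.

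The promoter sequences are shown because heat shock elements mark the inducible members. They cover the pairs Hspd1 with Hspe1 and Hspa1b with Hspa1a. With loess, Hspe1 and Hspa1b passed below, and Hspd1 and Hspa1a did not. A link between the letters and these values was not tested. Promoter windows of 300 bases (250 before the start site and 50 after it) were given for 7 of the 10 genes, from RefSeq on GRCm38.p6. Capitals mark each pair of units spelled GAANNTTC (head to head) or TTCNNGAA (tail to tail), both of which read the same on either strand and may overlap. The stretches run up to the base before the start site, on the strand of the gene, at chr1:55087998-55088147 for Hspe1 (plus strand), chr17:34959239-34959488 for Hspa1b (minus strand) and chr17:34972157-34972406 for Hspa1a (minus strand).
Hspe1: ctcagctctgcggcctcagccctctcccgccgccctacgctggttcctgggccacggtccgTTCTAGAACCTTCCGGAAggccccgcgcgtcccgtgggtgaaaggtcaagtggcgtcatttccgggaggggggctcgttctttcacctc
Hspa1b: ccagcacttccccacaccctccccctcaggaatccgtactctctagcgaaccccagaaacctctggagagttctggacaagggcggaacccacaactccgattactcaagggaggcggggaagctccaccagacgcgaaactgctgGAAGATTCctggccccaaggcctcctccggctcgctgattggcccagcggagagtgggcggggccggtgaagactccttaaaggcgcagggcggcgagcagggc
Hspa1a: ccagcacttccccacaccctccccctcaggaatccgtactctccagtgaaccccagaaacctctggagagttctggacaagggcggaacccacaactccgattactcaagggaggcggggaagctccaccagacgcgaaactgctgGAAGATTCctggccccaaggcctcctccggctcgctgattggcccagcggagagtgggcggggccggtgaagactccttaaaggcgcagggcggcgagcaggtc

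Hspd1 and Hspe1 lie next to each other on chromosome 1 on opposite strands. The window of 1 of the 2 annotated Hspd1 start sites shares 285 bases with that of Hspe1, so the capitals in the Hspe1 sequence belong to both promoters. They hold 4 alternating units that begin with TTC, a run found in 5 of the 32851 promoter windows of this length (0.0152%). The Hspe1 window and the Hspd1 window that overlaps it are among those 5. A run of 4 units that begins with GAA was found in 4 windows (0.0122%), whereas 15.1% held at least 1 pair. The Hspa1a and Hspa1b windows were the same at 296 of 300 positions. Counted from 1 at the first base shown, with the Hspa1b base first, they differed by T44C, C47T, G249T and T276C, the last of which lies 26 bases past the start and is not shown. Each held 1 pair, 104 bases before the start. Hsph1 held 3 pairs around either of its start sites, Hspb1 held 2, and neither Dnajb1 window held any. A match is a description of letters and not of binding.

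**Figure D1:**
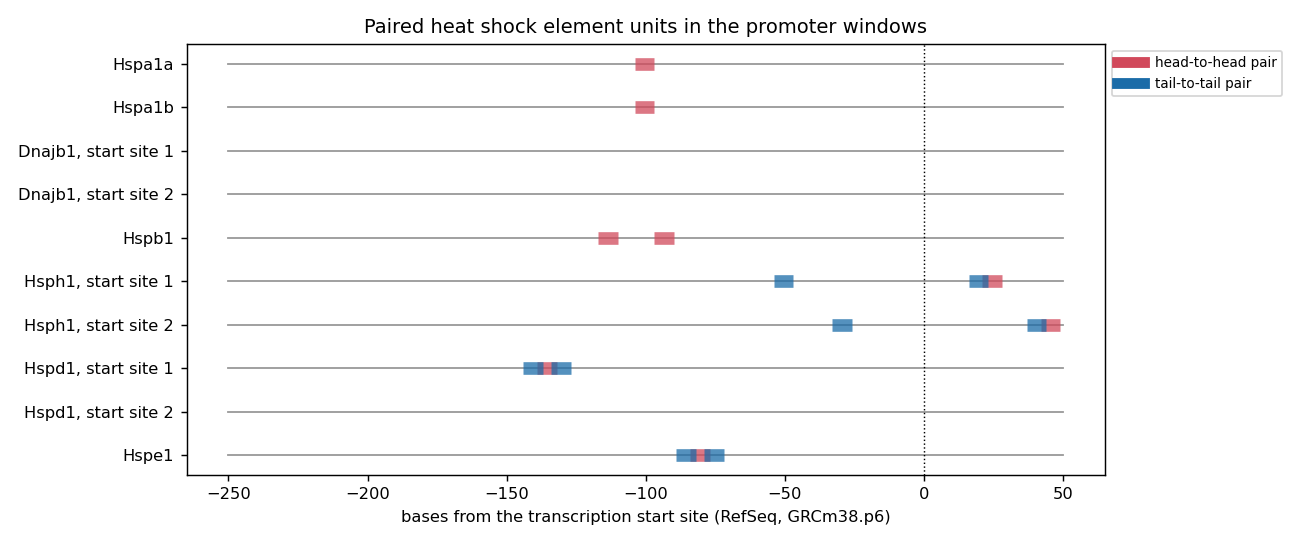
Positions of paired heat shock element units in the promoter windows of 7 genes, in bases from the RefSeq start site (dotted line). Red blocks are head-to-head pairs, blue blocks are tail-to-tail pairs, and grey lines are the 300 bases searched. Hspe1 and 1 of the 2 Hspd1 windows carry the run of overlapping pairs, and the Dnajb1 windows carry none.

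The heat shock proteins did not change as a block. Values are log2 ratios of KO over WT after loess normalization, given as the mean over 4 arrays ± SE. The SE is the moderated one of limma, which draws the spread of a gene between arrays towards that of all tested genes. Means were tested with limma against 0 with Benjamini-Hochberg adjustment over all 15532 tested genes at a threshold of 0.05. Each gene is represented by its brightest tested probe. Of the 10 members, 2 were higher in KO pancreas (Hspe1 and Hspa8), 1 was lower (Hspa1b, which stood at 0.21 with median centring) and 7 did not pass. With every probe tested on its own, 2 member probes were higher and 1 was lower, on a background of 6.62% of probes higher and 4.11% lower (10.7% in all). Over all genes in the fit with 1 probe a gene, 14.6% passed, 9.45% higher and 5.11% lower, and the count of 3 among 10 members was not tested against that background. Unadjusted limma p was under 0.05 for 5 members, on a background of 30.8% of all tested genes, and this count was not tested against that share. The member values ran between -0.31 and 0.41 with a median of 0.056, against 0.013 for all genes. Median centring in place of loess put 9 members past the threshold, 8 higher and 1 lower (Hspa1a), on a background of 76.8% of genes (61% higher and 15.8% lower). With red and green signals fitted as separate samples, without the pairing by array, 0 members passed in limma, on a background of 0.682% of genes (0.489% higher and 0.193% lower).

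**Figure D2:**
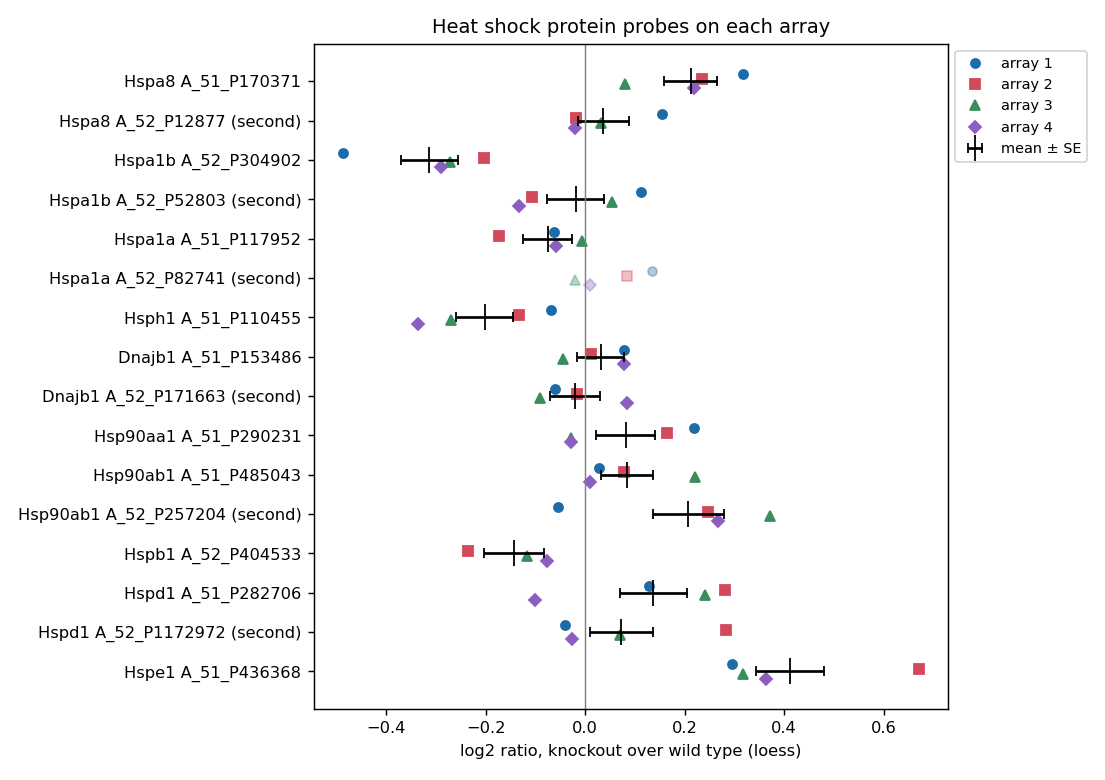
Log2 ratio of KO over WT (x axis, loess) for each of the 16 probes (y axis) on arrays 1 to 4 (symbols), with mean ± SE from the limma fit over probes in black. Pale symbols mark the Hspa1a probe that was too dim to test. Hspe1 lies right of 0 and the brighter Hspa1b probe left of 0 on all 4 arrays, where its mean with median centring was 0.21.

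Hspe1 (chr1:55088148-55091317 on GRCm38.p6) showed the largest change of the 10. Its log2 signal was 12.09, 12.32, 12.55 and 12.16 in KO extracts on arrays 1 to 4, against 11.79, 11.65, 12.23 and 11.79 in WT extracts. KO was higher than WT on each array, and the groups overlapped through the WT extract of array 3. The ratios were 0.29, 0.67, 0.32 and 0.36, so array 2 stood highest. The mean was 0.41 ± 0.069 (limma adjusted p = 0.0102), a 1.33-fold increase with an unadjusted 95% interval of 1.19 to 1.49. It passed without any 1 of the 4 arrays, at 0.33 to 0.45. RefSeq names 7 pseudogene or related copies after Hspe1, which its single probe (A_51_P436368) may also bind.

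Hspd1 (chr1:55077833-55088243), whose product works with that of Hspe1, did not pass. Its brighter probe gave 13.24, 13.26, 13.01 and 12.87 in KO and 13.11, 12.98, 12.76 and 12.97 in WT. Arrays 1 to 3 were thus higher in KO and array 4 lower, with ratios of 0.13, 0.28, 0.24 and -0.10. The mean was 0.14 ± 0.068 (limma adjusted p = 0.218, unadjusted 95% interval -0.021 to 0.30), and the second probe gave 0.072 ± 0.063. RefSeq names 5 copies after this gene. Hspe1 exceeded Hspd1 on 4 of 4 arrays, by 0.27 ± 0.18 (SD, n = 4) against the brighter probe and by 0.34 ± 0.067 against the second. In an exact sign-flip permutation test both gave two-sided p = 0.125, the smallest that this test allows with 4 arrays.

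Hspa8 (chr9:40801276-40805202), the constitutive Hsp70 of the cytosol, was higher by its brighter probe. The signal was 14.96, 14.76, 14.93 and 14.94 in KO, against 14.64, 14.52, 14.86 and 14.72 in WT. Every array was higher in KO, with ratios of 0.32, 0.23, 0.080 and 0.22, while the groups overlapped through the WT extract of array 3. The mean was 0.21 ± 0.052 (limma adjusted p = 0.0348), a 1.16-fold difference. The second probe (A_52_P12877) was well above background on all arrays and gave 0.037 ± 0.051. The brighter probe exceeded it on 4 of 4 arrays, by 0.18 ± 0.094 (SD, n = 4, exact sign-flip permutation p = 0.125, the smallest possible). The call was lost without array 1 (limma adjusted p = 0.112), array 2 (0.0761) or array 4 (0.111), and with the mean of the 2 probes (0.12, limma adjusted p = 0.116).

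Hspa1b (chr17:34956429-34959238), 1 of the pair of stress-inducible Hsp70 genes, was lower by its brighter probe (A_52_P304902) with loess, but stood at 0.21 with median centring. The signal was 13.61, 13.57, 13.49 and 13.69 in KO and 14.10, 13.78, 13.77 and 13.98 in WT, so KO was below WT on each array with loess. The ratios were -0.49, -0.20, -0.27 and -0.29, with array 1 the lowest. The mean was -0.31 ± 0.057 (limma adjusted p = 0.0132), and it passed without any 1 array, at -0.35 to -0.26. The mean of both Hspa1b probes was -0.17 (limma adjusted p = 0.0379). The second Hspa1b probe (A_52_P52803) had ratios of 0.11, -0.11, 0.053 and -0.13, which fell on both sides of 0, and a mean of -0.019 ± 0.057. The brighter probe was below it on 4 of 4 arrays, by a mean difference of -0.30 ± 0.23 (SD, n = 4, exact sign-flip permutation p = 0.125, the smallest possible).

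Hspa1a (chr17:34969359-34972156), the twin of Hspa1b, gave dim signals. The signal of its brighter probe (A_51_P117952) was 7.04, 7.04, 7.18 and 7.04 in KO and 7.11, 7.21, 7.18 and 7.10 in WT. The ratios of -0.064, -0.17, -0.0069 and -0.058 had 1 sign, but the mean of -0.075 ± 0.047 did not pass (limma adjusted p = 0.318). The other probe (A_52_P82741) was well above background on 2 arrays in KO and on 2 in WT, and was not tested. Hspa1a and Hspa1b encode nearly the same protein and their transcripts share long stretches, so these probes may not separate the 2 genes, and their values are uncertain for that reason.

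**Figure D3:**
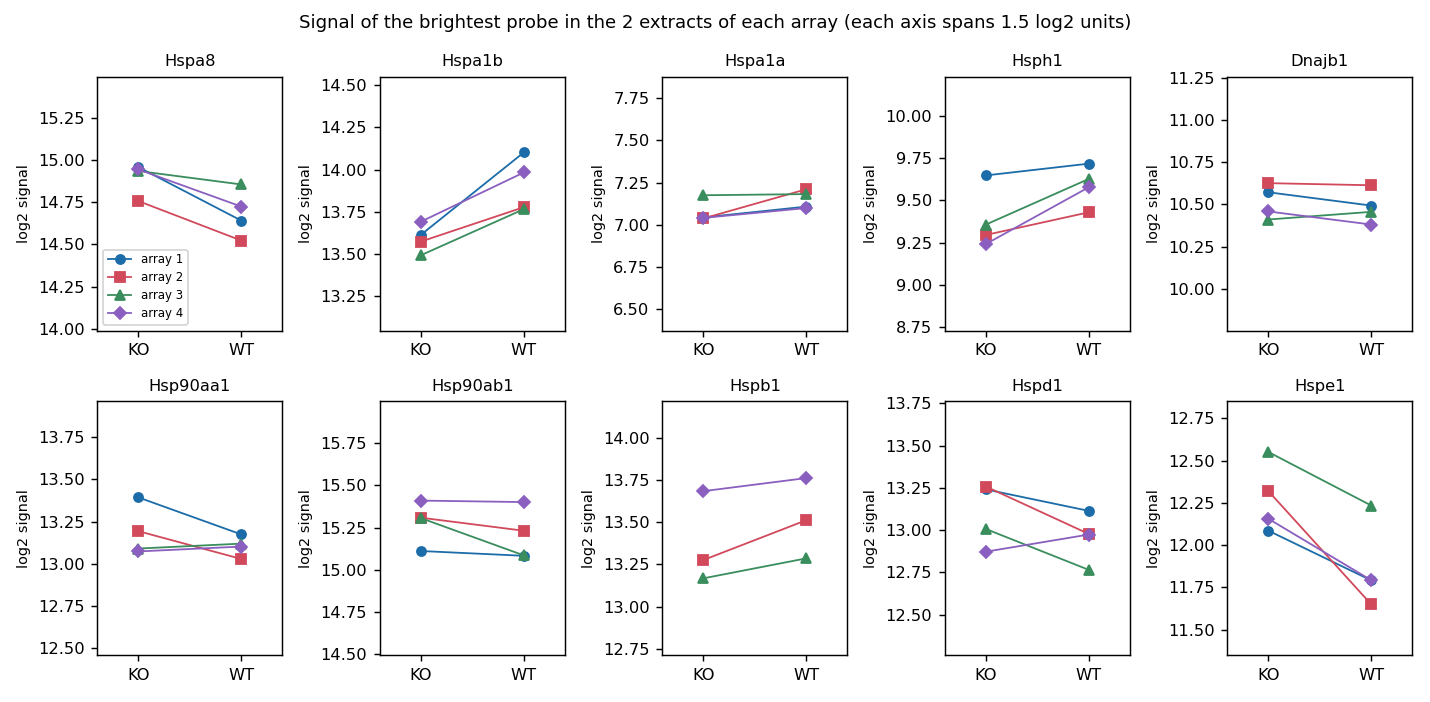
Log2 signal (y axis, after loess and Aquantile scaling between arrays) of the brightest probe of each gene in the KO and WT extracts, with the 2 extracts of an array joined by a line. Every axis spans 1.5 log2 units. The lines of Hspe1 and Hspa8 run down from KO to WT on all 4 arrays and those of Hspa1b run up, with loess. Hspb1 has no value on array 1.

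Hsph1 encodes Hsp110, a nucleotide exchange factor that releases ADP from Hsp70. Its signal was 9.65, 9.29, 9.36 and 9.24 in KO and 9.72, 9.43, 9.63 and 9.58 in WT. KO was below WT on all 4 arrays, with ratios of -0.070, -0.13, -0.27 and -0.34. The mean of -0.20 ± 0.057 just missed the threshold (limma adjusted p = 0.0522). It passed with array weights (limma adjusted p = 0.0302) and stood at 0.092 with median centring.

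Dnajb1, a J-domain protein that works with inducible Hsp70, stayed close to 0. Its brighter probe gave 0.079, 0.012, -0.045 and 0.078, with a mean of 0.031 ± 0.046 (unadjusted 95% interval -0.075 to 0.14). The second probe gave -0.021 ± 0.050. Neither probe kept 1 sign over the arrays.

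The 2 cytosolic Hsp90 genes did not pass. Hsp90aa1, the inducible form, gave 0.22, 0.16, -0.029 and -0.029, so arrays 1 and 2 were higher in KO and arrays 3 and 4 close to 0. Hsp90ab1, the constitutive form, gave 0.028, 0.077, 0.22 and 0.0088 by its brighter probe, all above 0 and highest on array 3. Its second probe (A_52_P257204) gave -0.056, 0.25, 0.37 and 0.27, with a mean of 0.21 ± 0.071 (limma adjusted p = 0.103 over all probes). Only array 1 lay below 0 on that probe.

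Hspb1, the small heat shock protein Hsp27 that holds unfolded proteins in solution, was measured on 3 arrays because its spot on array 1 was marked as non-uniform. The signal was 13.28, 13.17 and 13.68 in KO and 13.51, 13.29 and 13.76 in WT on arrays 2 to 4. KO was lower on each of the 3, with ratios of -0.24, -0.12 and -0.077. The mean of -0.14 ± 0.058 did not pass (n = 3 arrays, limma adjusted p = 0.150).

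The values of the members depended on the normalization. With median centring, brighter genes had higher log2 ratios over the whole array: the median was -0.042 for 6802 genes with a mean log2 signal under 9, 0.36 for 6706 genes between 9 and 12, and 0.52 for 2024 genes at 12 or above, where 7 of the 10 members lie. With loess the same medians were 0.019, 0.0077 and 0.0028. Under median centring Hspe1 stood at 0.87, Hspa8 at 0.78, Hsp90ab1 at 0.67, Hspd1 at 0.64 and Hsp90aa1 at 0.58, and the dim Hspa1a at -0.37. Relative to the median of all genes under that scaling (0.26), Hspe1 was at 0.62, Hspa8 at 0.52, Hspa1b at -0.043, Hsph1 at -0.16 and Hspb1 at 0.11.

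**Figure D4:**
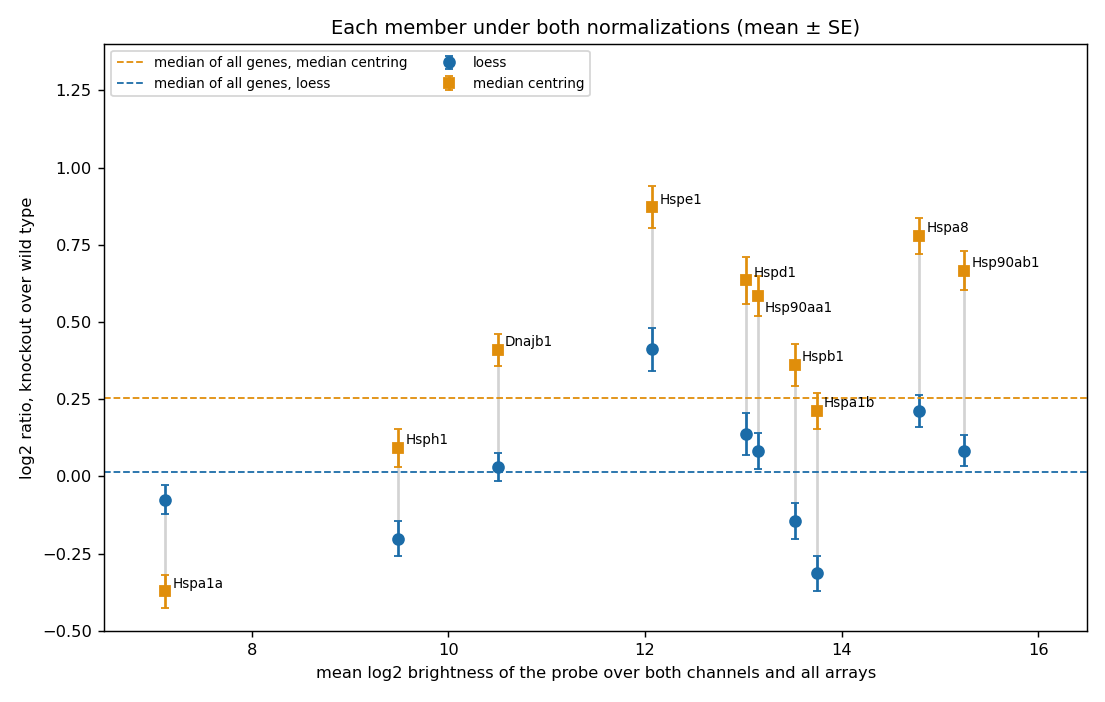
Log2 ratio of KO over WT (y axis, mean ± SE) of each member after loess (blue) and after median centring (orange), against the mean log2 brightness of its probe (x axis). Dashed lines are the medians of all genes, 0.013 with loess and 0.26 with median centring. Grey lines join the 2 values of a gene, and the gap is widest among the bright probes.

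Other genes of the chaperone network were read from 11 lists. Of their 127 tested genes 38 passed with loess, 26 higher and 12 lower in KO, and 10 of the 38 also passed without any 1 of the 4 arrays. Over all genes 14.6% passed with loess, 9.45% higher and 5.11% lower. The counts below are with loess, and median centring turned most lists towards higher in KO. With median centring 61% of all genes were higher and 15.8% lower. The list counts were not tested against these shares. Chaperones and proteases of mitochondria were higher where they passed. Of 18 tested, 7 were higher and 0 lower (median 0.15), and 18 were higher with median centring. With processed signals 2 were higher, and leaving out 1 array left 3, or 2 without array 4. Trap1, the mitochondrial Hsp90, rose by 0.35 ± 0.042 (limma adjusted p = 0.0036), with 0.36, 0.37, 0.34 and 0.33 on arrays 1 to 4, an even rise. Clpp, the protease subunit of the ClpXP complex, rose by 0.25 ± 0.044 (limma adjusted p = 0.0118). Dnajc19, of the import motor, was at 0.26 ± 0.057 (limma adjusted p = 0.0593 without array 2 and 0.0926 without array 4).

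Of 8 small heat shock proteins outside the 10 members, 0 were higher and 2 lower (Hspb8 and Hspb3, median -0.042). The count was 1 higher and 2 lower with processed signals and loess, and 5 higher and 1 lower with median centring. Hspb8, which with Bag3 hands damaged proteins to autophagy, fell by 0.70 ± 0.081 (limma adjusted p = 0.0031), with -0.79, -0.39, -0.70 and -0.91 on arrays 1 to 4. It remained past the threshold with median centring (-0.35) and was the only gene of these lists to pass without the pairing by array (limma adjusted p = 0.0273). Bag3 was at -0.29 ± 0.072 with loess (limma adjusted p = 0.0358) and at 0.091 with median centring, and it did not pass without array 2, 3 or 4 (limma adjusted p = 0.0650, 0.0933 and 0.0726). Hspb3, a small heat shock protein best known from muscle, was at -0.43 ± 0.073 (limma adjusted p = 0.0107) and at 0.016 with median centring.

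Of 16 other DnaJ co-chaperones 1 was higher and 2 lower (median -0.078), and these 3 also passed without any 1 array. With median centring 13 were higher and 0 lower. Dnaja4 was at -0.40 ± 0.057 (limma adjusted p = 0.0057), and its second probe gave -0.36, but with median centring it was at -0.0998 and did not pass (limma adjusted p = 0.133). Dnajc21, which acts in ribosome assembly, was at -0.29 ± 0.051 with loess and at 0.12 with median centring. Dnajc9, a histone chaperone, rose by 0.36 ± 0.059 (limma adjusted p = 0.0093), and its second probe gave 0.31. None of the 7 other Hsp70 and Hsp110 genes passed in limma with loess (3 higher and 3 lower with median centring), with values between -0.066 and 0.19 and 1 unadjusted p under 0.05 (Hspa14, 0.19 ± 0.073).

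Of 15 Hsp90 co-chaperones 3 were higher (Fkbp4, Ahsa1 and Ppp5c) and 2 lower (Fkbp5 and Chordc1), against 12 higher and 1 lower with median centring. The second probes of Cdc37 and Cdc37l1 also passed over all probes, where their brighter probes did not. Cdc37 gave 0.21 (limma adjusted p = 0.0247) against -0.053 for the brighter probe, and Cdc37l1 gave -0.34 (limma adjusted p = 0.0164) against -0.16. Chordc1, at -0.31 with loess, stood at 0.057 with median centring. Fkbp4, a co-chaperone of steroid receptors, rose by 0.29 ± 0.045 (limma adjusted p = 0.0084), and its second probe gave 0.31. Fkbp5, a glucocorticoid-induced co-chaperone of the same receptors, was at -0.55 ± 0.064 (limma adjusted p = 0.0031). Its brightest probe stood at -0.15 with median centring and did not pass there. With loess its other probes gave -0.64 and -0.71 (limma adjusted p = 0.0012 and 0.0014 over all probes). Fkbp4 and Fkbp5 both passed without any 1 array. Ahsa1, which activates the Hsp90 ATPase, was at 0.20 ± 0.043 (limma adjusted p = 0.0217), and without array 1, 3 or 4 it did not pass (0.0719, 0.0650 and 0.0831). Without array 1, 3 or 4 the count of this list was 1 higher and 1 lower. Of 9 Hsp70 regulators 3 were higher (Bag1, St13 and Stub1) and 1 lower (Bag3), and without array 3 or 4 none passed. The count was also 0 with processed signals and loess and 0 with the deposited log ratio, and 7 higher and 0 lower with median centring.

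Hsf1, the factor behind the heat shock response, was at -0.17 ± 0.046 with loess (limma adjusted p = 0.0441), past the threshold, and at 0.29 with median centring. Its second probe gave 0.092, and it did not pass without array 1, 2, 3 or 4 (limma adjusted p = 0.107, 0.0950, 0.0784 and 0.159). Hsbp1l1, a small relative of a heat shock factor binding protein, rose by 0.38 ± 0.065 (limma adjusted p = 0.0106). Of 14 TRiC and prefoldin genes, which fold actin and tubulin, 3 were higher (Pfdn1, Pfdn5 and Tcp1) and 0 lower, with 1 left without array 2, 3 or 4 and 14 higher with median centring. Pfdn1 was at 0.36 ± 0.070 (limma adjusted p = 0.0168, and 0.0598 without array 4).

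For comparison, 6 of 14 tested ER chaperones were higher, none was lower by its brightest probe and the median was 0.24. However, 0 passed without array 4, and 3 were higher and 1 lower without array 2. With median centring 14 were higher. Another probe of Dnajb9 (A_52_P613358) was lower at -0.33 (limma adjusted p = 0.0242 over all probes), while its brightest probe gave -0.18 and did not pass. Hsp90b1, the Hsp90 of the ER, was at 0.37 ± 0.069 (n = 3 arrays, limma adjusted p = 0.0181, and 0.0509 without array 4). Of 10 other heat-inducible genes 1 was higher and 1 lower, against 6 higher and 1 lower with median centring. Atf3 was at -0.37 ± 0.085 (limma adjusted p = 0.0294), and passed only without array 3 when 1 array was left out. Of 10 immediate early genes, which respond fast to stimuli, tissue handling among them, 1 was higher (Ier2) and 3 lower (Jun, Nr4a1 and Egr1), with a median of -0.14, and without array 1 or 3 none passed. With median centring 3 were higher and 4 lower, and Nr4a1 did not pass (-0.072). Jun, the AP-1 subunit, was at -0.22 ± 0.042 (limma adjusted p = 0.0158), and passed only without array 2 when 1 array was left out. The probes of Jun, Egr1 and Atf3 were dim, with mean log2 signals of 7.35, 7.30 and 7.77, against 7.12 for Hspa1a. The part of handling in the member values was not tested.

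**Figure D5:**
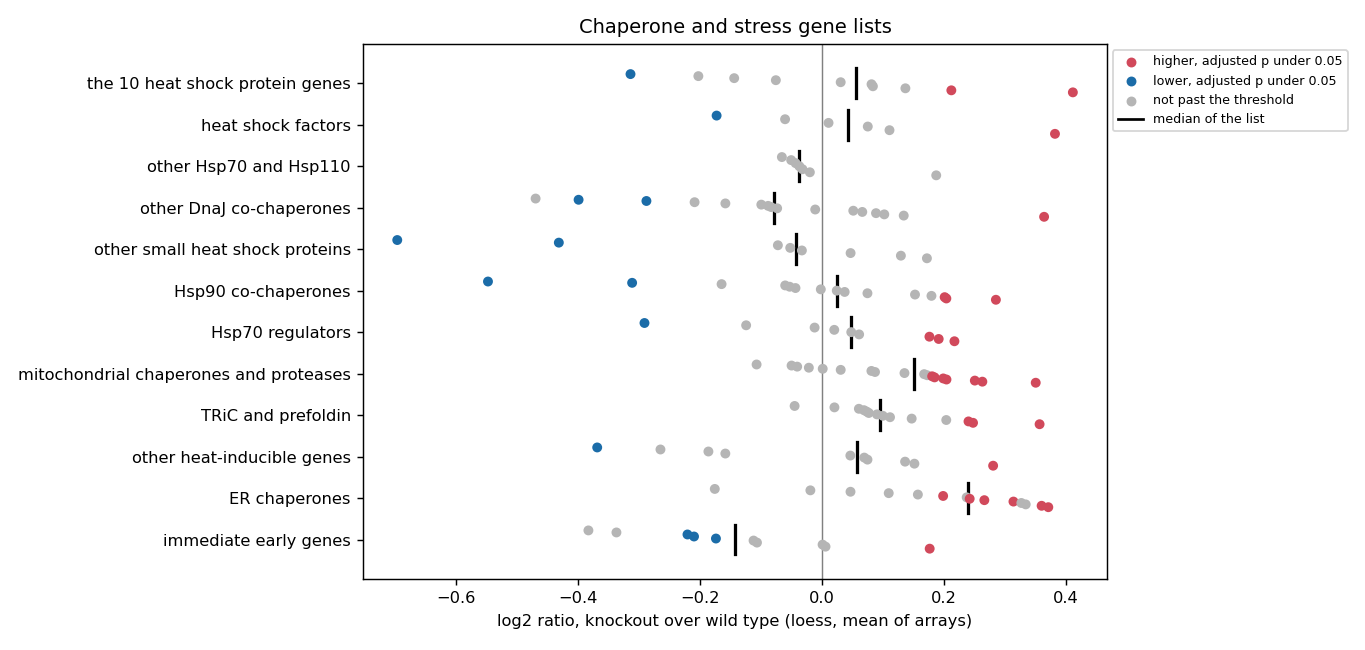
Log2 ratio of KO over WT (x axis, loess) of each tested gene in the 10 heat shock protein genes and the 11 related lists (y axis). Red points were higher and blue points lower at a limma adjusted p under 0.05, grey points did not pass, and black lines are list medians. The called genes of the mitochondrial, TRiC and ER lists all lie right of 0 and those of the small heat shock proteins left of 0, though with median centring Hspb3 stood at 0.016 and the medians of most lists lay right of 0. Each gene is drawn by its brightest probe, and another Dnajb9 probe of the ER list was called at -0.33.

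The genes whose 4 ratios were nearest to those of Hspe1, by Euclidean distance over the arrays, were Ndufa4, of the respiratory chain (distance 0.075), the ribosomal protein gene Rpl4 (0.086), the elongation factor gene Eef1b2 (0.10) and Itgb3bp (0.10). All 4 lay between 0.60 and 0.69 on array 2, which follows from choosing them by distance to Hspe1. Among the brightest probes of the members, that of Hspd1 had the widest range over arrays, and Rab3c (distance 0.034), Mat1a (0.043), Zfp78 (0.069) and Rpl21 (0.077) were nearest to it. Those 4 genes lay between -0.12 and -0.075 on array 4, a sign that the choice by distance also fixed. With 4 arrays and 15532 genes such near matches are a description only.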

How the data were processed

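Arrays were read by the authors in Feature Extraction from Agilent (version 10.5.1.1), as the submitters' processing notes state. The deposited files give median red and green signals and local background as intensity, processed signals as intensity, and a log10 ratio of red over green, per the file headers. The labels state that 20 µg of total RNA per extract were reverse transcribed from oligo(dT) and coupled to dye.

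Median signals were corrected with normexp (offset 50) and normalized by loess within arrays in limma 3.58.1 under R 4.3.3. The files hold median signals, and the planned design allowed mean or median ones. Non-uniform spots (597 to 979 per array) were left out. No spot was saturated (0 spots). Of 41174 probes, 25097 were named through RefSeq accessions in a table of assembly GRCm38.p6. A probe was tested if well above background on at least 3 arrays in 1 channel, and if at least 3 arrays gave a value. This kept 32605 probes, among them 15 of the 16 member probes. Log2 ratios were fitted against 0 with lmFit and eBayes, so the 2 extracts of an array are paired inside each value. Single-channel log2 signals were scaled with Aquantile. The number of arrays limits the precision, and SE and p cover the spread between arrays as moderated by limma over all tested genes. The fit was tested on simulated data.

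The members and lists were chosen with earlier results of these data known. The rule for named genes took all members, up to 3 genes with the smallest p per list, and the 4 genes nearest in pattern to the member of largest change and to that of widest range. Ppp5c, Chordc1, Stub1, Egr1, Cdc37, Cdc37l1 and Dnajb9 were named after their values were seen. The values of 1 gene that the rule named are not reported here. Alternatives changed background, signal, normalization, filter, probe choice, variance model, weights, the array as a block, and left out each replicate.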

Additional observations from a re-analysis of the deposited data

How the results depend on the processing

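Of 170 values of the 10 members under the 17 alternatives, 149 kept their direction and side of the threshold. With median centring 11929 genes, 9 members and 110 genes of the related lists passed. Hspa1b (0.21), Hspb1 (0.36) and Hsph1 (0.092) then changed sign, as did Bag3 (0.091), Chordc1 (0.057), Dnajc21 (0.12), Hsf1 (0.29), Hspa12b (0.23), Hspb3 (0.016) and the second probes of Hspa1b (0.39) and Dnajb1 (0.23), while Hsp90aa1 (0.58), Hsp90ab1 (0.67), Dnajb1 (0.41), Hspd1 (0.64) and Hspa1a (-0.37) came to pass, and Dnaja4 (-0.0998) did not. That scaling leaves in place the trend of the ratio with brightness. Without the array as a replicate block 106 genes, 0 members and 1 related gene passed, and Hspe1 (0.41, limma adjusted p = 0.266), Hspa8 (0.21, limma adjusted p = 0.368) and Hspa1b (-0.31, limma adjusted p = 0.189) did not. Testing every probe gave 3496 calls among more features. With processed signals and loess 24 related genes passed. Hspa8 did not pass there (0.18), with the deposited log ratio (0.18) or with the mean of probes (0.12), and the cause was not tested. Hsph1 passed with the strict filter, the mean of probes, eBayes with trend and robust (-0.20 each) and array weights (-0.23). Leaving out 1 replicate gave 1048 to 1660 calls over all genes, 2 to 3 members, 12 to 24 related genes, and 0.18 to 0.26 for Hspa8. Array signal over background limits Hspa1a.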
